A study of Caenorhabditis elegans with 24 samples.

Results

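The fbxa genes are a family of Caenorhabditis elegans genes that encode F-box proteins. They were taken as every gene of the deposited tables whose symbol begins with fbxa-, which gave 170 genes of 46926, all of them protein-coding. The study sequenced RNA of intact young adults in 24 libraries, 3 for each of 8 groups, which are 4 genotypes grown at 26 °C or 20 °C. In 3xFG the phenylalanine-glycine repeats of 3 germ granule helicases are mutated, by substitution in GLH-1 and GLH-4 and by deletion in GLH-2. WAGO-4(Y611E) carries an amino acid change predicted to disrupt the binding of small RNAs by the Argonaute protein WAGO-4, and WAGO-4 KO carries a stop codon in the wago-4 gene. WT is the strain in which WAGO-4 is fused to FLAG and GFP at its own locus. The 3xFG and WAGO-4(Y611E) strains carry that tag too, whereas no tag is named for WAGO-4 KO, which would then differ from WT by the tag as well as by the stop codon.

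An F-box protein is the exchangeable part of an SCF ubiquitin ligase. It binds an SKP1-related protein (SKR in C. elegans) through the F-box, which ties it to the cullin CUL-1 and a RING protein, and it holds the substrate with the rest of its sequence. C. elegans has far more F-box genes than mammals, most of them in young, tandemly duplicated families, and the fbxa family pairs the F-box with an FTH domain. For most of its members no substrate is known. FBXA-75 and FBXA-158 have been described as partners of the cullin CUL-6 in the intracellular pathogen response, a program against microsporidia, virus and heat, together with the RING protein RCS-1 and the adaptors SKR-3, SKR-4 and SKR-5.

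The deposited tables hold the authors' comparisons of groups and no value per library. For each gene they give a mean normalized count, a log2 fold change and its standard error (SE), an adjusted p-value from DESeq2 as run by the authors (written here as adjusted p) and a shrunken log2 fold change, which is pulled towards 0 where the reads are few. The level of a group was computed from these: with the mean over the 4 genotypes of a temperature and the 3 ratios to WT, the level of each genotype follows. Such an implied level is in normalized counts and has no spread of its own, so that the error of each difference is the standard error of its log2 fold change. Of 1112 implied levels above 0, 899 were at least 1, 13 lay between 0.5 and 1, and 200 were under 0.5. A group under 0.5 was taken to have next to no reads. There the fitted fold change has no bound, and the shrunken value is given instead.

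The fbxa genes lay mostly on 2 chromosomes. Chromosome V held 71 and chromosome III held 60, against 14 each on II and X, 6 on I and 5 on IV. The longest transcript had a median of 1134 nucleotides, close to the 1154 of all protein-coding genes, and a median of 4 exons. With neighbours joined where at most 20 kb separated them, 118 of the genes fell into 24 clusters of 2 or more and 52 stood alone. The largest cluster held 26 genes, fbxa-61 to fbxa-25 on chromosome III (1239048 to 1349450 in WBcel235). Such neighbours are close paralogs, and reads that match several of them could have been split or lost by the counting. The values of single members are uncertain to that extent.

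Most fbxa genes were weakly expressed. The median member had a mean normalized count of 13.3 over both temperatures, against 59.4 for all protein-coding genes. At 26 °C 103 of 170 had a mean of at least 10 and 25 of at least 100, and at 20 °C 78 and 18. A single gene, fbxa-215 (chromosome IV, 13665364 to 13666909), gave 32.4% of the summed mean of the family. Per kilobase of transcript its mean was 2932 at 26 °C and 3081 at 20 °C. The next 4 in that order at 26 °C were fbxa-210 (626 per kilobase), fbxa-72 (586), fbxa-101 (455) and fbxa-206 (385), and these 5 were also the highest at 20 °C. The order was therefore led by a gene about which the others were several-fold lower.

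Levels varied more between groups in this family than in protein-coding genes at large. The 42 fbxa genes with a level of at least 10 in every group had a median ratio of 3.53 between their highest and lowest group, against 2.13 over the 10686 protein-coding genes that met the same condition, which were not matched on mean count. The ratio was smallest for fbxa-215, which had a level of 3991 in 3xFG, 3991 in WAGO-4(Y611E), 4166 in WAGO-4 KO and 3627 in WT at 26 °C, and of 3266, 3764, 5222 and 4322 in the same order at 20 °C. None of the 10 comparisons called fbxa-215 changed. The ratio was largest, at 18.9, for fbxa-182 (chromosome II, 2409633 to 2412749). Of the named genes with reads, those with a mean under 100 over both temperatures spanned a wider range on the log scale than the 5 with the highest means.

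**Figure D1:**
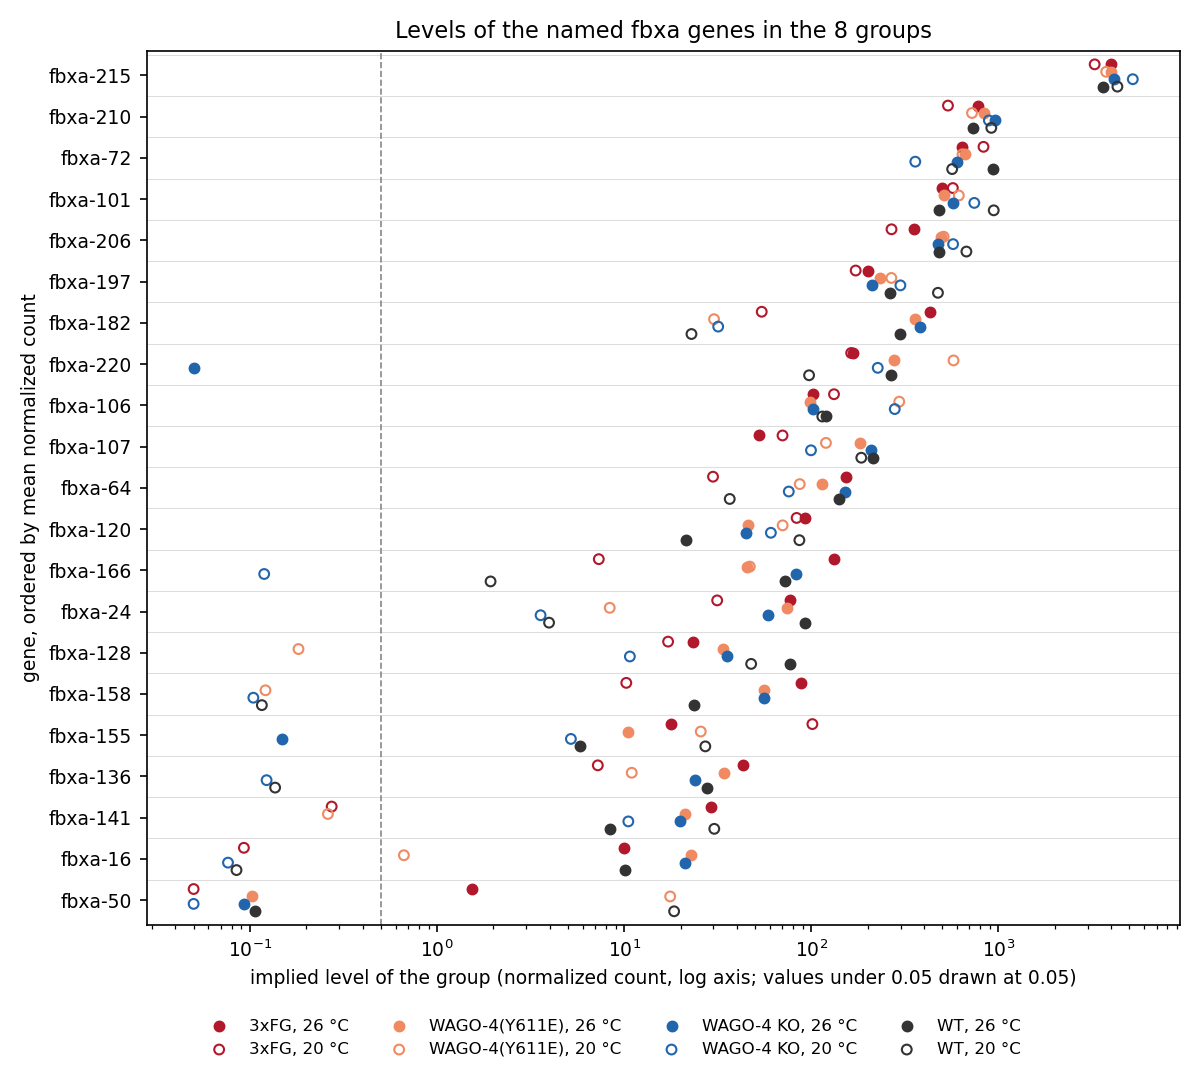
Implied level of each named fbxa gene in the 8 groups, in normalized counts on a log axis, with filled points for 26 °C and open points for 20 °C and 1 colour per genotype. The dashed line marks a level of 0.5, and fbxa-75, whose mean was 0, is not drawn. The filled points of fbxa-182 lie between 298 and 432 and its open points between 22.9 and 54.3, while the points of fbxa-215 lie together above 3266.

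At 26 °C more members of the family were detected than at 20 °C. A mean of 0 was listed for 20 fbxa genes at 26 °C and for 42 at 20 °C, and the 20 were among the 42, so that 22 genes (12.9% of the family) had reads at 26 °C alone and 0 at 20 °C alone. Among all protein-coding genes, which were not matched on mean count, 6.78% had reads at 26 °C alone and 2.05% at 20 °C alone. The number of fbxa genes with a level of at least 0.5 was 129 at 26 °C and 107 at 20 °C in 3xFG. It was 130 against 97 in WAGO-4(Y611E), 114 against 106 in WAGO-4 KO and 126 against 103 in WT. In each genotype it was higher at 26 °C, and the smallest gap was in WAGO-4 KO. The read totals of the libraries are not held here, and the part of sequencing depth in these counts was not tested. The highest mean of a gene without reads at 20 °C was 23.4.

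**Figure D2:**
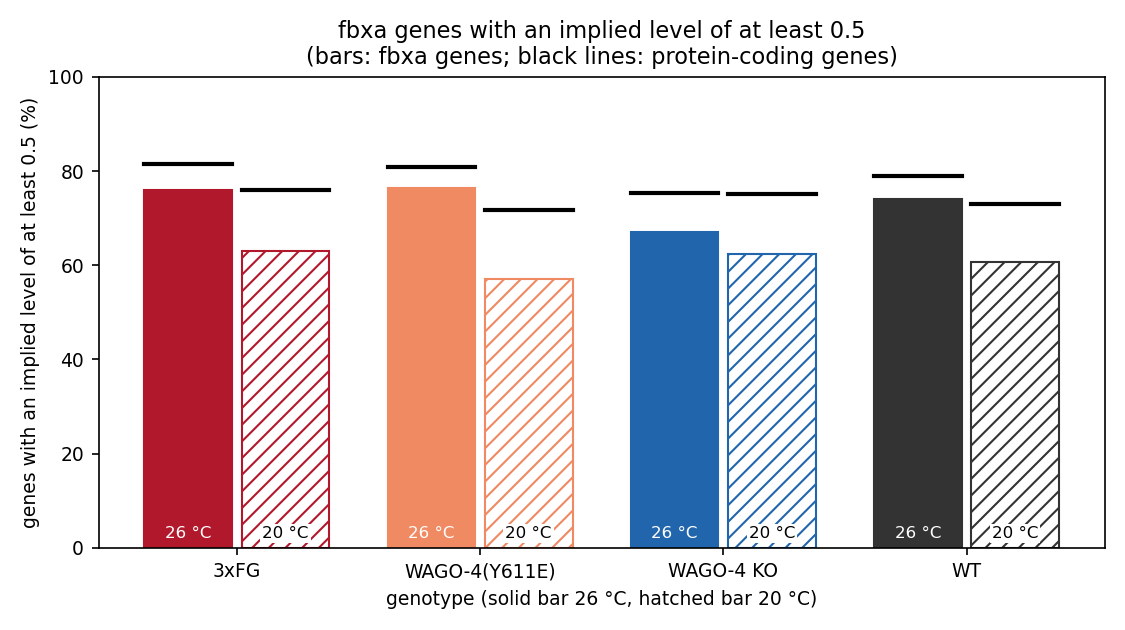
Share of the 170 fbxa genes with an implied level of at least 0.5 in each group, in percent, with solid bars for 26 °C and hatched bars for 20 °C and black lines for all protein-coding genes. In WT the share was 74.1% at 26 °C and 60.6% at 20 °C, against 78.9% and 73.0% of protein-coding genes.

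Within each genotype, worms grown at 26 °C were compared with worms grown at 20 °C, which asks what the family does at the elevated temperature that the study used to challenge the germ granule mutants. In all 4 genotypes the middle of the family lay above 0. Among the fbxa genes with a mean of at least 10 and a level of at least 0.5 in both groups, the median log2 fold change was 0.63 in 3xFG (87 genes), 0.91 in WAGO-4(Y611E) (79 genes), 0.84 in WAGO-4 KO (80 genes) and 0.76 in WT (81 genes). Protein-coding genes under the same filter, not matched on mean count, had medians of 0.02, 0.03, 0.19 and 0.10. The part of the low counts of the family in this difference was not tested. Positive values were held by 77.0%, 69.6%, 77.5% and 69.1% of these fbxa genes in the same order, against 51.3%, 51.9%, 58.7% and 55.8% of protein-coding genes. The SE of a single fbxa gene was large, with medians of 1.36 to 1.39 against 0.40 to 0.41 for protein-coding genes. Over all genes with a mean of at least 10 the median stood at 0.12 in WT and 0.18 in WAGO-4 KO, and the medians of the family lay above that shift.

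Few of these differences passed the test gene by gene. A gene was called at an adjusted p under 0.05. In 3xFG 4 of 109 fbxa genes tested rose and 0 fell, where 4.1% of all genes tested rose and 5.2% fell. In WAGO-4(Y611E) 12 of 109 rose and 2 fell, against 8.27% and 6.56% of all genes. In WAGO-4 KO 7 of 105 rose and 3 fell, against 10.5% and 6.96%, and in WT 10 of 109 rose and 4 fell, against 8.28% and 6.74%. The shares of fbxa genes that rose (3.67%, 11.0%, 6.67% and 9.17%) were thus near those of all genes. In 3xFG no member fell at an unadjusted p-value under 0.05 either, and 15 rose, of 148 members with a p-value. Counts at an unadjusted p-value, here and below, are given without the share of all genes and cannot be set against it. Recentring on the median of all genes turned the WAGO-4 KO calls into 6 that rose and 5 that fell, with fbxa-211 and fbxa-215 among those that fell, and removing a trend with transcript length gave 6 that rose and 6 that fell, with fbxa-197 as well. With a t distribution of 8 degrees of freedom in place of the normal one, 1, 2, 5 and 1 calls were left in the 4 genotypes. The fit of both temperatures holds 24 libraries and leaves more degrees of freedom than 8, so that this choice is too strict for these comparisons.

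**Figure D3:**
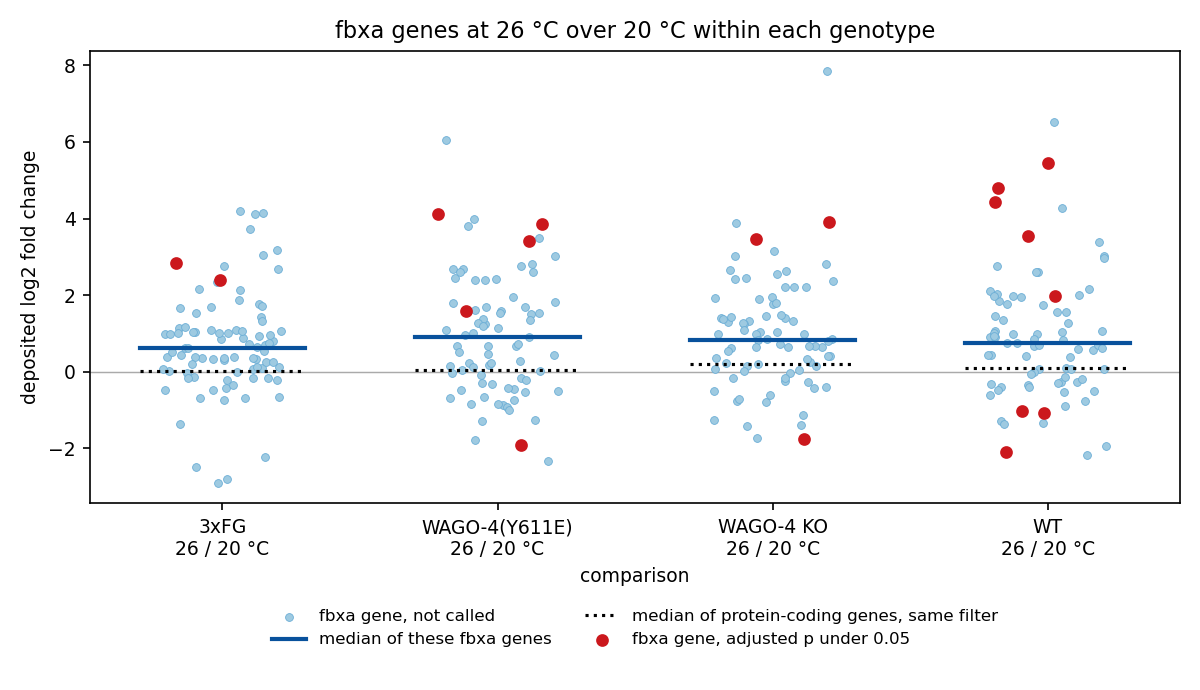
Deposited log2 fold change at 26 °C over 20 °C for fbxa genes with a mean of at least 10 and a level of at least 0.5 in both groups, 1 point per gene, red where the adjusted p was under 0.05. Blue bars mark the median of these genes (0.63, 0.91, 0.84 and 0.76) and dotted lines that of protein-coding genes (0.02, 0.03, 0.19 and 0.10).

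The gene that stood out in all 4 genotypes was fbxa-182. Its level was 432 at 26 °C and 54.3 at 20 °C in 3xFG, 360 against 30.2 in WAGO-4(Y611E), 383 against 31.8 in WAGO-4 KO, and 298 against 22.9 in WT. These are single implied levels, and they do not show how far the libraries of the groups overlap. The log2 fold change was 2.84 (SE 0.56, adjusted p 2.21e-05) in 3xFG and 3.43 (0.57, 1.38e-07) in WAGO-4(Y611E). It was 3.46 (0.57, 7.31e-08) in WAGO-4 KO and 3.54 (0.58, 9.81e-08) in WT. The call held in all 4 genotypes under every alternative tried, including the t distribution.

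A second group that rose lies in a cluster of 6 genes on chromosome II (1609252 to 1624672), which also holds fbxa-158. The level of fbxa-158, the described partner of CUL-6, was 88.5 at 26 °C and 10.3 at 20 °C in 3xFG, 55.7 against 0.12 in WAGO-4(Y611E), 55.8 against 0.10 in WAGO-4 KO, and 23.5 against 0.12 in WT. It had next to no reads at 20 °C outside 3xFG. It was called in WAGO-4(Y611E) (adjusted p 2.52e-04), WAGO-4 KO (1.37e-04) and WT (0.00267), with shrunken log2 fold changes of 0.71, 0.72 and 0.38. In 3xFG, the genotype with reads at both temperatures, the log2 fold change was 2.67 (SE 1.51) with an adjusted p of 0.340. The 3 calls are therefore against groups with next to no reads, and their sizes are not known.

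Its neighbour fbxa-166 was called in WAGO-4 KO and in WT. It had a level of 83.2 at 26 °C and 0.12 at 20 °C in WAGO-4 KO (shrunken 0.75, adjusted p 1.74e-05) and of 72.1 and 1.93 in WT (log2 fold change 4.80, SE 1.45, adjusted p 0.0106). In WAGO-4(Y611E) its level was 45.4 at 26 °C and 46.9 at 20 °C, and in 3xFG 131 and 7.31 with an adjusted p of 0.0685. The other members of the cluster were weaker. No reads were listed at 20 °C for fbxa-163, fbxa-164 and fbxa-165, whose means at 26 °C were 14.6, 12.1 and 6.59, none of these was called in any genotype, and fbxa-160 was at 0 throughout.

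fbxa-64 and fbxa-24 were each called in 2 genotypes with reads in both groups. fbxa-64 had a level of 154 at 26 °C and 29.8 at 20 °C in 3xFG (log2 fold change 2.40, SE 0.62, adjusted p 0.00259) and of 141 and 36.6 in WT (1.96, 0.62, 0.0146). fbxa-24 had 58.6 and 3.57 in WAGO-4 KO (3.90, 1.46, 0.0449) and 92.4 and 3.97 in WT (4.42, 1.46, 0.0219). The WAGO-4 KO call of fbxa-24 was lost when the fold changes were recentred.

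Many of the other calls rested on a group with next to no reads. With such groups left out, a limit chosen after the values were seen, the calls were 2 of 4 in 3xFG, 5 of 14 in WAGO-4(Y611E), 3 of 10 in WAGO-4 KO and 8 of 14 in WT. fbxa-136 rose in WAGO-4 KO (23.8 at 26 °C and 0.12 at 20 °C, shrunken 0.35) and in WT (27.8 and 0.14, shrunken 0.40). fbxa-141 rose in 3xFG (29.2 and 0.27, shrunken 0.35) and in WAGO-4(Y611E) (21.1 and 0.26, shrunken 0.27). fbxa-16 rose in WAGO-4 KO alone (21.1 and 0.08, shrunken 0.39), and fbxa-128 in WAGO-4(Y611E) alone (33.6 and 0.18, shrunken 1.05). For these genes the low group was between 0.08 and 0.27, whichever genotype made the call.

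7 fbxa genes were called lower at 26 °C in at least 1 genotype, and 4 of them had reads in both groups. The share of all genes that fell in at least 1 genotype was not computed. By genotype, 5.2% of all genes tested fell in 3xFG, 6.56% in WAGO-4(Y611E), 6.96% in WAGO-4 KO and 6.74% in WT. fbxa-106 (chromosome V, 18082402 to 18085200) fell in both wago-4 mutants. Its level was 97.9 at 26 °C and 295 at 20 °C in WAGO-4(Y611E) (log2 fold change -1.92, SE 0.52, adjusted p 0.00345) and 102 and 279 in WAGO-4 KO (-1.76, 0.52, 0.00714). In 3xFG it was 102 and 132 and in WT 120 and 114, with adjusted ps of 0.544 and 0.839. At 20 °C the gene was called against WT in none of the mutants (log2 fold change 1.29, SE 0.49, adjusted p 0.0504 in WAGO-4 KO), and in WAGO-4(Y611E) it had no adjusted p.

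The other 3 fell in WT. fbxa-101 (chromosome I, 12958640 to 12959932) had a level of 479 at 26 °C and 943 at 20 °C (log2 fold change -1.03, SE 0.28, adjusted p 0.00297). fbxa-197 had 262 and 475 (-1.09, 0.40, 0.0418), and fbxa-120 had 21.5 and 86.3 (-2.10, 0.71, 0.0271). No mutant passed the test between temperatures for any of the 3. At 20 °C fbxa-101 had a level of 570 in 3xFG, 743 in WAGO-4 KO and 614 in WAGO-4(Y611E), each set against the same WT libraries.

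The remaining 3 fallers had a group at next to no reads. fbxa-220 (chromosome III, 11482469 to 11484189) had a level of 0.00 at 26 °C and 226 at 20 °C in WAGO-4 KO, with a shrunken log2 fold change of -0.13. fbxa-155 had 0.15 and 5.19 in the same genotype, with a shrunken value of -0.04. fbxa-50 was called lower in WAGO-4(Y611E) (0.10 and 17.6, shrunken -0.10) and in WT (0.11 and 18.5, shrunken -0.10), and higher in 3xFG (1.54 and 0.00, shrunken 0.01). It was the only member called in both directions.

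Across genotypes the direction was often shared. Of the 90 fbxa genes with a mean of at least 10 over both temperatures, 40 (44.4%) had a positive log2 fold change in all 4 genotypes and 5 (5.56%) a negative one, against 25% and 16.1% of 13326 protein-coding genes. Beyond that limit the protein-coding genes were not matched on mean count. The limit asked for no level at the lower temperature. A member with next to no reads there could pass on its reads at the higher temperature, and its sign is then positive by the way it passed. How many of the 40 passed in this way was not counted. The shares therefore cannot tell a common rise from the effect of the limit, and the part of the limit in them was not tested. The 4 comparisons share no libraries. Of 109 fbxa genes tested in at least 1 genotype, 23 (21.1%) rose in at least 1, 7 (6.42%) in at least 2 and 1 (fbxa-182, 0.92%) in all 4. Over all genes tested these shares were 19.6%, 6.89% and 1.28%, so that those of the family were near the background.

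By position, the summed levels of the larger clusters were further apart between temperatures than those of single genes. The calls, counted over all members whether tested or not, were not more frequent there. The 7 clusters of 5 or more genes hold 73 members. The summed mean of those members was 2273 at 26 °C and 1034 at 20 °C, a ratio of 2.20, and it was higher at 26 °C in each of the 7 clusters. Clusters of 2 to 4 genes had a ratio of 1.21, and the 52 single genes, among them fbxa-215, one of 1.02, or 1.13 without fbxa-215. By calls, 11 of the 52 single genes rose in at least 1 genotype and 5 fell, against 7 and 1 of the 73 genes in clusters of 5 or more and 5 and 1 of the 45 in clusters of 2 to 4. A mean of at least 10 over both temperatures was held by 34 of the 52, 31 of the 73 and 25 of the 45. Fewer of the clustered genes could thus be called, and the counts do not compare the positions. Of all genes tested in at least 1 genotype, 19.6% rose in at least 1, and no such share was computed for falls. Summed over all protein-coding genes the ratio was 0.93. On chromosome II the ratio of the fbxa genes was 3.87, on III 1.74, on X 1.41 and on V 1.17, while on IV it was 0.97 and on I 0.79. These are ratios of sums that a few genes can carry, and they were not tested.

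The chromosome II cluster had the highest ratio of summed means of these 7, at 10.3, but not in WAGO-4(Y611E), where the ratio of the 26-gene cluster on chromosome III and that of a cluster on chromosome V were higher. Its summed level was 272 at 26 °C and 17.6 at 20 °C in 3xFG, 125 against 47.0 in WAGO-4(Y611E), 177 against 0.22 in WAGO-4 KO, and 114 against 2.05 in WT. The 26-gene cluster on chromosome III had 722 and 364 in 3xFG, 582 against 187 in WAGO-4(Y611E), 547 against 206 in WAGO-4 KO, and 441 against 244 in WT. It holds fbxa-75, the other described partner of CUL-6, for which a mean of 0 was listed at both temperatures. That cluster on chromosome V, the 5 genes fbxa-143 to fbxa-18, had 19.5 and 5.48 in 3xFG and 28.2 and 1.88 in WAGO-4(Y611E), and went the other way in the remaining genotypes, with 4.02 and 25.7 in WAGO-4 KO and 7.26 and 15.5 in WT.

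**Figure D4:**
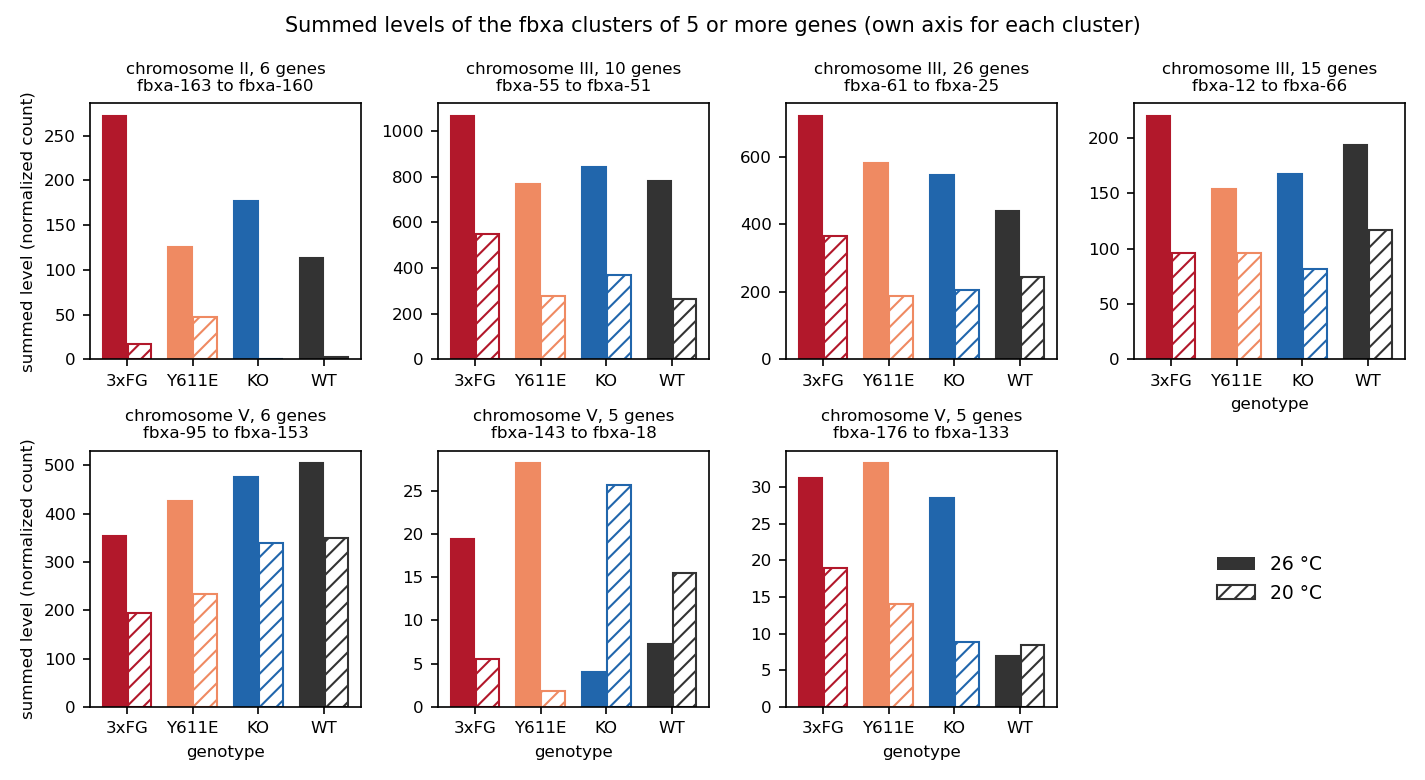
Summed implied level of the fbxa genes in each of the 7 clusters of 5 or more, in normalized counts, with solid bars for 26 °C and hatched bars for 20 °C and a separate axis for each cluster. In 5 of the 7 clusters every genotype is higher at 26 °C, and the exceptions are 2 clusters of 5 genes on chromosome V, which have the lowest sums.

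At 20 °C each mutant was compared with WT, to ask what the family does when the repeats or the Argonaute are altered. fbxa-197, fbxa-206 and fbxa-210 were lower in 3xFG, and no fbxa gene was called in either wago-4 mutant. In 3xFG, of 13 fbxa genes tested 3 fell and 0 rose, where 10.3% of all genes tested fell and 7.85% rose. Of 126 members with a p-value, 10 were lower and 2 higher at an unadjusted p-value under 0.05. fbxa-197 (chromosome V, 15867673 to 15869051) had a level of 173 in 3xFG and 475 in WT, a log2 fold change of -1.46 (SE 0.33, adjusted p 5.53e-04). fbxa-206 had 268 and 674 (-1.33, 0.46, 0.0265), and fbxa-210 had 537 and 916 (-0.77, 0.28, 0.0371). fbxa-206 and fbxa-210 were among the 5 members with the highest mean. The weaker members did not follow them: over the 74 fbxa genes with reads in both groups and a mean of at least 10, the median log2 fold change was 0.34, beside 0.12 for protein-coding genes. Recentring on the median of all genes, which stood at 0.13, made it 5 that fell, with fbxa-101 and fbxa-215 added. Without the filter on low counts fbxa-206 and fbxa-210 lost their calls, fbxa-197 kept its own, and fbxa-50 and fbxa-6 were called lower. With the t distribution none of the 3 passed.

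The wago-4 mutants had few members to test at 20 °C. In WAGO-4(Y611E) 0 of 5 members tested rose or fell, where 6.18% of all genes rose and 4.9% fell, and in WAGO-4 KO 0 of 13, where 9.12% rose and 9.1% fell. DESeq2 as run by the authors left few members with an adjusted p here, because its filter on the mean count was strict. At an unadjusted p-value under 0.05 there were 3 higher and 8 lower in WAGO-4(Y611E), and 3 higher and 3 lower in WAGO-4 KO. In each of these mutants 126 members had a p-value. Over the members with reads in both groups the median log2 fold change was -0.09 in WAGO-4(Y611E) (71 genes) and -0.11 in WAGO-4 KO (73 genes), beside 0.00 and -0.13 for protein-coding genes. Without the filter fbxa-128 and fbxa-190 were called lower in WAGO-4(Y611E). Both had a level near 0 in that group, 0.18 and 0.19, against 47.7 and 45.6 in WT.

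At 26 °C fbxa-107 was lower in 3xFG and fbxa-220 in WAGO-4 KO, and no member was called in WAGO-4(Y611E). In 3xFG 1 of 24 fbxa genes tested fell and 0 rose, where 2.41% of all genes fell and 2.49% rose. Of 150 members with a p-value, 7 were higher and 7 lower at an unadjusted p-value under 0.05. The gene called was fbxa-107 (chromosome V, 18123939 to 18125235), a neighbour of fbxa-210, with a level of 52.7 in 3xFG and 213 in WT (log2 fold change -2.01, SE 0.49, adjusted p 0.00223). In the other groups of 26 °C its level was 209 in WAGO-4 KO and 182 in WAGO-4(Y611E), so that 3xFG was the lowest of the 4. At 20 °C 3xFG was the lowest as well, with 70.2, against 120 in WAGO-4(Y611E), 99.6 in WAGO-4 KO and 185 in WT, but the gene had no adjusted p there. fbxa-197, fbxa-206 and fbxa-210 had log2 fold changes of -0.38, -0.44 and 0.08 in 3xFG at 26 °C and did not pass.

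In WAGO-4(Y611E) at 26 °C 0 of 87 members tested rose or fell, where 1.15% of all genes rose and 1.76% fell. Of 150 members with a p-value, 2 were higher and 1 lower at an unadjusted p-value under 0.05. In WAGO-4 KO 1 of 113 fell and 0 rose, where 1.97% and 0.79% of all genes did so. That gene was fbxa-220, with a level of 0.00 in WAGO-4 KO and 267 in WT and a shrunken log2 fold change of -0.02. Of 150 members with a p-value in WAGO-4 KO, 4 were higher at an unadjusted p-value under 0.05 and 6 lower. Over the members with reads in both groups the medians were 0.17 in 3xFG (101 genes), 0.09 in WAGO-4(Y611E) (102 genes) and 0.07 in WAGO-4 KO (99 genes), beside -0.01 for protein-coding genes in each. The median SE of these members was 1.07, against 1.61 to 1.69 at 20 °C. The fbxa-107 and fbxa-220 calls were both lost with the t distribution.

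**Figure D5:**
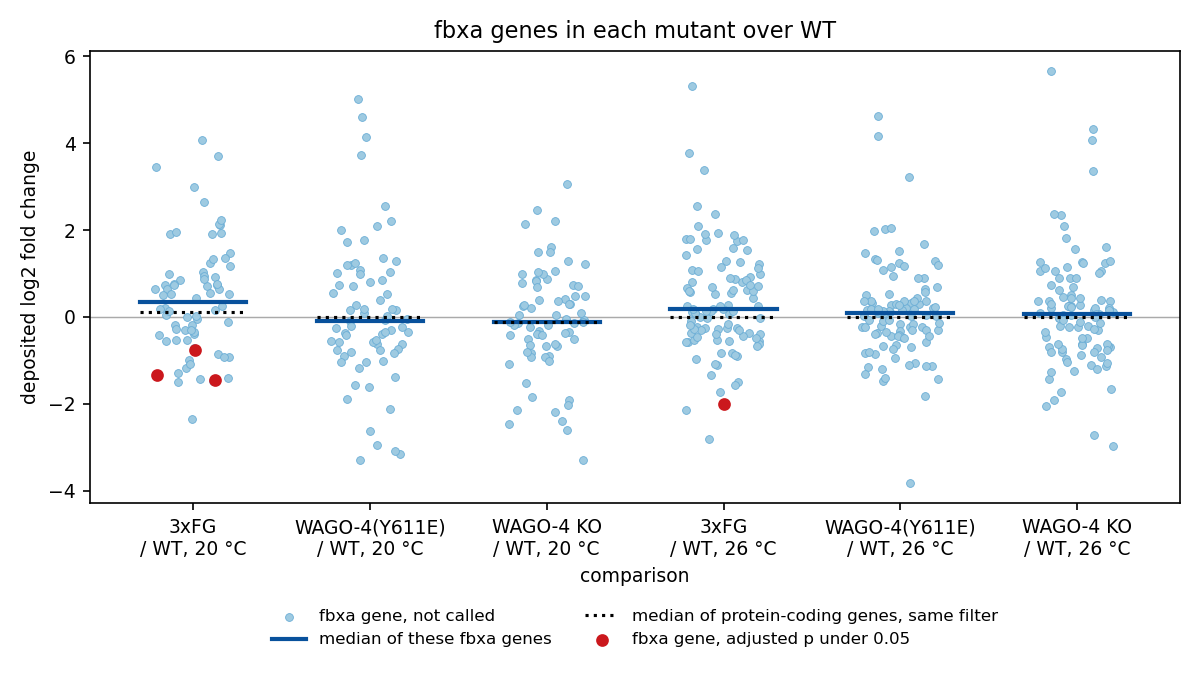
Deposited log2 fold change of each mutant over WT at 20 °C and 26 °C for fbxa genes with a mean of at least 10 and a level of at least 0.5 in both groups, 1 point per gene, red where the adjusted p was under 0.05. The blue median bars (0.34, -0.09, -0.11, 0.17, 0.09 and 0.07) lie near the dotted medians of protein-coding genes, and the 4 red points are all below 0. The 3 comparisons of a temperature share the WT libraries.

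Whether a mutant changed an fbxa gene differently at 26 °C than at 20 °C was tested as the difference of its log2 fold changes over WT, with a normal p-value adjusted over 17041 genes. Of 112 fbxa genes tested, 0 differed in 3xFG, where 0.54% of all genes did. In WAGO-4(Y611E) 0 differed, against 2.12% of all genes, and for WAGO-4 KO 1 did, against 2.13%. At an unadjusted p-value under 0.05 there were 6, 9 and 5 in the 3 mutants. The 1 gene was fbxa-220, whose levels in WAGO-4 KO were 0.00 at 26 °C and 226 at 20 °C, against 267 and 97.2 in WT. The lowest adjusted p in WAGO-4(Y611E) was 0.0702, for fbxa-190, and in 3xFG 0.231, for fbxa-141. The falls of fbxa-197, fbxa-206 and fbxa-210 in 3xFG at 20 °C are therefore not shown to differ from their values at 26 °C.

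Genes of SCF and related ubiquitin ligases were read beside the family. The list of 14 held cullins, RING genes and other genes of the ubiquitin system, not all of which work with F-box proteins. Of these 14, cul-1 (the cullin of SCF ligases) was lower at 26 °C in 3xFG (log2 fold change -0.31, adjusted p 0.0292) and in WAGO-4 KO (-0.33, 0.0102). At 26 °C over 20 °C 0 of the 14 rose and 2 fell in 3xFG, 1 rose and 2 fell in WAGO-4(Y611E), 1 rose and 1 fell in WAGO-4 KO, and 2 rose and 2 fell in WT. Of all genes tested 4.1%, 8.27%, 10.5% and 8.28% rose in the same order, and 5.2%, 6.56%, 6.96% and 6.74% fell. Among 20 adaptor genes of the skr family, 19 of them tested, 4 rose in 3xFG, 4 in WAGO-4(Y611E), 3 in WAGO-4 KO and 2 in WT, while 0, 0, 1 and 2 fell. The calls of skr-9 in 3xFG and of skr-8 and skr-10 in WAGO-4(Y611E) were against 20 °C groups with next to no reads. The lists were not tested against each other.

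Of the partners described for FBXA-75 and FBXA-158, skr-3, skr-4 and rcs-1 rose in WAGO-4 KO and in WT, and skr-5 and cul-6 were called in no genotype. skr-3 had a level of 749 at 26 °C and 243 at 20 °C in WAGO-4 KO (log2 fold change 1.54, SE 0.30, adjusted p 7.21e-06) and of 694 and 310 in WT (1.06, 0.30, 0.00492). skr-4 had 621 and 113 in WAGO-4 KO (2.26, 0.77, 0.0239) and 562 and 96.0 in WT (2.33, 0.77, 0.0221). The RING gene rcs-1 had 270 and 92.0 in WAGO-4 KO (1.52, 0.50, 0.0173) and 217 and 78.7 in WT (1.41, 0.50, 0.0362). In 3xFG none of these 3 was called, with log2 fold changes of 0.65, 1.09 and 0.92, and in WAGO-4(Y611E) only skr-3 was (0.88, SE 0.30, adjusted p 0.0266). cul-6 itself had 137 and 35.8 in WAGO-4 KO and 90.9 and 25.8 in WT, with adjusted ps of 0.225 and 0.285. It was not higher at 26 °C in 3xFG (61.1 and 68.7, log2 fold change -0.10, adjusted p 0.990) or in WAGO-4(Y611E) (63.1 and 88.2, -0.42, 0.889). skr-5 had 15.4 and 0.14 in WAGO-4 KO (adjusted p 0.0716) and 11.2 and 16.0 in WT (log2 fold change -0.51, SE 2.51, adjusted p 0.948). Its levels were 31.2 and 0.17 in 3xFG (adjusted p 0.0646) and 13.7 and 0.17 in WAGO-4(Y611E) (0.106).

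Between mutants and WT the 14 ligase genes were called at 20 °C alone. There 11 of the 14 were tested in each mutant. In 3xFG cul-1 and cul-5 rose and rbx-1 and ubc-12 fell, where 7.85% of all genes tested rose and 10.3% fell. In WAGO-4(Y611E) cul-5 rose, where 6.18% of all genes did. In WAGO-4 KO cul-1, cul-2, cul-5 and uba-1 rose, where 9.12% of all genes did. Of the adaptors, 7, 4 and 7 were tested at 20 °C in 3xFG, WAGO-4(Y611E) and WAGO-4 KO, and skr-2 and skr-17 fell in 3xFG. At 26 °C 0 of 13 ligase genes tested in 3xFG and 0 of 14 in each wago-4 mutant were called. At an unadjusted p-value under 0.05, 1 was lower in 3xFG, 1 higher in WAGO-4(Y611E) and 1 higher in WAGO-4 KO. skr-7 rose at 26 °C in 3xFG (1 of 12 adaptors tested) and in WAGO-4 KO (1 of 19), where 2.49% and 0.79% of all genes rose. It was the only adaptor called at that temperature.

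The related F-box families fbxb (104 genes) and fbxc (48 genes) gave the nearest comparison. At 26 °C over 20 °C, 10 of 57 fbxb genes tested rose in 3xFG, 10 of 57 in WAGO-4(Y611E), 2 of 48 in WAGO-4 KO and 5 of 57 in WT. Of the fbxc genes 2 of 29, 2 of 29, 1 of 27 and 4 of 29 rose in the same order, beside 4.1%, 8.27%, 10.5% and 8.28% of all genes, and 0 fell in either family. At an unadjusted p-value under 0.05, 0, 0, 1 and 1 fbxb genes were lower and 0, 1, 0 and 1 fbxc genes. In 3xFG 15.9% of fbxa genes and 44.2% of fbxb genes had a level of at least 0.5 at 26 °C alone. The shares of fbxa and fbxb genes were 23.5% and 57.7% in WAGO-4(Y611E), 12.9% against 13.5% in WAGO-4 KO, and 16.5% against 37.5% in WT. Of protein-coding genes, not matched on mean count, 8.59%, 11.9%, 6.1% and 9.38% did so in the 4 genotypes. At 20 °C alone WAGO-4 KO had 8.24% of fbxa, 14.4% of fbxb and 8.33% of fbxc genes, which for fbxb and fbxc was more than at 26 °C alone. In fbxc the share at 26 °C alone was 18.8%, 20.8%, 4.17% and 16.7% in 3xFG, WAGO-4(Y611E), WAGO-4 KO and WT. The 3 families were not tested against each other.

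Facts of the whole libraries that move with these groups are as follows. Markers of germline, oocytes, intestine, body wall muscle, hypodermis and neurons were all detected. The summed level of 31 major sperm protein genes was lower at 26 °C than at 20 °C in each genotype, with 9860 and 60224 in 3xFG, 7722 against 34966 in WAGO-4(Y611E), 8130 against 17371 in WAGO-4 KO, and 18764 against 53213 in WT. In all 4 genotypes between 3 and 5 of 7 germline markers fell at 26 °C and 0 rose. Somatic markers rose at 26 °C mainly in WAGO-4 KO, with 4 of 7 for intestine, 2 of 6 for body wall muscle, 2 of 5 for hypodermis and 1 of 7 for neurons. Of the 7 intestine markers, 1 rose and 2 fell in 3xFG, 2 rose in WAGO-4(Y611E) and 1 fell in WT, and 1 hypodermis marker rose in WAGO-4(Y611E). Of 9 oocyte and eggshell markers, perm-2 and perm-4 rose in each mutant, puf-5 and rme-2 fell in WAGO-4 KO, and 0 were called in WT. Of 8 embryo markers pes-10 and tbx-38 rose in 3xFG and WAGO-4(Y611E) and tbx-38 in WT, all but pes-10 in WAGO-4(Y611E) against groups with next to no reads. At 20 °C the summed level of 6 body wall muscle genes was 45982 in WAGO-4 KO and 118265 in WT, and 3 of the 6 fell. Also lower in WAGO-4 KO were 2 of 2 hypodermis genes tested (col-19 and col-119), 1 of 7 intestine genes (asp-1) and 1 of 3 neuron genes tested (egl-3). Of 9 oocyte and eggshell genes, oma-1, rme-2 and cbd-1 rose and 0 fell. In that comparison 9.12% of all genes rose and 9.1% fell. In WAGO-4(Y611E) against WT at 20 °C col-19, col-119, asp-1 and the germline gene htp-1 fell, where 4.9% of all genes did. In 3xFG against WT at 20 °C pgl-1 rose and htp-1 fell, where 7.85% and 10.3% of all genes did. The part of these shifts in the fbxa values was not tested, and in whole worms fewer cells of a type and less RNA per cell cannot be told apart. The wago-4 mRNA of WAGO-4 KO was close to that of WT, with log2 fold changes of -0.26 (26 °C) and 0.05 (20 °C), and so it does not check the label.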

How the data were processed

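Ribosomal RNA was depleted and strand-specific libraries were sequenced on an Illumina NovaSeqX. WBcel235 is the build in the submitters' processing notes, and the aligner and counter are not given in the sources used here. The authors deposited 10 comparisons from DESeq2 over 46926 genes, from 3 fits (12 libraries at 20 °C, 12 at 26 °C, both temperatures), with 0 columns of per-sample values. Depth and spread between libraries are thus unknown here. The study describes the 3 libraries of a group as biological replicates.

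The deposited mean normalized count is a signal averaged over a fit. Beside it the authors deposited the log2 fold change as fitted and as shrunken, the standard error of the fitted one, a Wald statistic (a score) and raw and adjusted p-values. They were used as deposited, in the shared fits instead of fits of single pairs of groups, but raw p-values were recomputed from the statistic, since 1 cell held it in place of the p-value. A gene without an adjusted p was untested. The fit of both temperatures holds a mean of 0 for 1167 genes (2 of them fbxa) with reads in a single-temperature fit, and for fbxa-192 a mean of 21.2 beside 69.3 at 26 °C and 88.9 at 20 °C, for a reason not given.

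Positions and lengths came from Ensembl 115 (WBcel235). Named genes were the 5 with the highest mean at each temperature, those called in at least 2 comparisons with reads in both groups, the 2 with the lowest adjusted p per comparison and direction at a mean of at least 10, those called in the temperature difference or with a group without reads, fbxa-75 and fbxa-158; other members named in the text were chosen after their values were seen. The members, lists and tests were chosen with earlier results of these data known. Python 3.11.15, numpy 2.4.6, pandas 2.3.3 and scipy 1.17.1 were used, and the test of the temperature difference was tested on simulated data.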

Additional observations from a re-analysis of the deposited data

Results flagged for a closer look

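The effect of WAGO-4 KO on fbxa-220 differed between temperatures. Its log2 fold change over WT at 26 °C minus that at 20 °C was -25.15 (standard error 4.21, adjusted p-value 8.02e-06 over 17041 genes). The size has no bound, because the level in WAGO-4 KO at 26 °C was 0.00, and the shrunken log2 fold changes were -0.02 at 26 °C and 0.05 at 20 °C. The levels of the other groups ranged from 97.2 in WT at 20 °C to 575 in WAGO-4(Y611E) at 20 °C. Whether the reads of those groups came from all of their libraries cannot be seen without values per library.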

How the results depend on the processing

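Recentring on the median of all genes gave 5 calls instead of 3 in 3xFG against WT at 20 °C and 1 instead of 0 in WAGO-4 KO. With no filter on low counts 2 genes were called instead of 0 at 20 °C in both wago-4 mutants, WAGO-4(Y611E) and WAGO-4 KO, and 2 instead of 1 in 3xFG at 26 °C. In 3xFG at 20 °C it left 3 calls, of which 1 (fbxa-197) was among the 3 made with the filter. With a t distribution of 8 degrees of freedom, a strict choice, the mutant calls went to 0 in 3xFG at both temperatures and to 0 for WAGO-4 KO at 26 °C, and the temperature calls to 1 in 3xFG, 2 in WAGO-4(Y611E), 5 in WAGO-4 KO and 1 in WT, and the difference between temperatures in WAGO-4 KO had 0 calls. Without calls on a group that seems to have no reads by the planned limit, WAGO-4 KO against WT at 26 °C had 0. The temperature calls were then 3 in 3xFG, 13 in WAGO-4(Y611E), 7 in WAGO-4 KO and 13 in WT. With the limit of 0.5, chosen after seeing the data, WAGO-4 KO against WT at 26 °C had 0 as well. The temperature calls were then 2, 5, 3 and 8 in 3xFG, WAGO-4(Y611E), WAGO-4 KO and WT. fbxa-24 in WAGO-4 KO lost its call at 3.72 when recentred and at 3.57 with the length trend removed. The 2-fold minimum and the trend with transcript length moved no total count by more than 1.5 times, but with the trend removed the calls of WAGO-4 KO between temperatures were 6 higher and 6 lower instead of 7 and 3. No named gene reversed its direction. The shrunken value moved 29 of 34 log2 fold changes of named genes by more than 1 standard error. The cause of these changes was not tested. Leaving out each replicate was not run, since no value per library is held. No paired analysis was possible because the tables carry no replicate numbers.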
